A study of Drosophila melanogaster with 6 samples.

Results

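heph (FBgn0011224) is the gene of the polypyrimidine tract binding protein (PTB) of Drosophila melanogaster. It was found in the deposited table by its FlyBase symbol and is 1 of 14737 genes there. Its rows are 99 of 128393 features: 44 exonic bins (stretches of exon cut at every annotated exon boundary), 49 annotated splice junctions and 6 unannotated ones. Of these 99, 5 had no count in any library, 25 had between 1 and 59 counts over all libraries and 69 had at least 60. By number of features it ranked 6 among all genes, and no gene had more unannotated junctions than its 6, a number reached by 3 of the 306 genes that had any. heph was picked out with the comparison of the genotypes in view, both of its gene count and of the shares of its features. Every heph value below is therefore a description, without a test.

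PTB binds pyrimidine-rich stretches of RNA, among them the tract before a 3′ splice site, and in vertebrates it is best known for blocking the inclusion of exons flanked by such stretches. In Drosophila, heph is needed for the individualisation of sperm, acts on Notch signalling in the wing, and binds osk mRNA in the oocyte, where it takes part in translational repression. The gene has many first exons, which give proteins with different amino ends and a common set of RNA-binding domains.

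RNA came from whole embryos of the wild-type strain OreR and of a strain with the CC01391 allele of caper, a gene whose product binds RNA and works in splicing. Each genotype had 3 libraries labelled as biological replicates, and all were sequenced as read pairs in a single lane. No library carried any other allele or agent in the labels, the age of the embryos is not given in the sources used here, and the allele and the background of its strain cannot be told apart. caper's own counts were not analysed here.

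Library totals lay between 34815930 and 42956396 gene counts. Markers of embryonic stage and tissue differed between the genotypes. The summed level of 5 matched maternal genes lay at 1260.5 to 1806.2 CPM, counts scaled to library size with TMM factors, in OreR and at 2881.5 to 3906.8 in the mutant. 3 of these 5 were called higher in the edgeR test of all genes, among them smg, a repressor of maternal mRNA, at a mean of 853.9 against 2438.8 CPM. Most of the summed difference was smg, while osk at 170.5 and 142.0 CPM and gcl at 181.9 and 155.9 CPM were lower in the mutant without being called. The summed levels of 6 neuron, 4 muscle and 6 late epidermis markers were lower in every mutant library than in every OreR library, with 4, 3 and 4 of them called lower. Those of 4 neuroblast and 6 early zygotic markers overlapped. OreR replicate 2 stood apart from the other OreR libraries, with the lowest maternal and the highest neuron and muscle sums. Of 6 chorion and 6 testis markers, which embryos should lack, 2 each were at 0 everywhere; chorion genes summed to at most 0.881 CPM, and the testis sum of 13.2 to 23.9 CPM in OreR and 33.6 to 38.4 CPM in the mutant was mostly bam, a germline gene. The part of these differences in the heph values was not tested, and in bulk RNA fewer cells of a type and less RNA per cell cannot be told apart.

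heph was more abundant in mutant embryos. The OreR libraries held 10474, 10876 and 10403 counts of heph, and the mutant libraries 16930, 16613 and 19424. In CPM the level was 269.4, 252.2 and 282.3 in OreR and 405.2, 481.7 and 499.6 in the mutant. The lowest mutant library was well above the highest OreR library. The means were 267.9 ± 15.1 and 462.2 ± 50.2 CPM (SD, n = 3), a 1.73-fold difference and a log2 ratio of 0.79. By mean CPM, heph ranked 684 of 10251 tested genes in OreR and 402 in the mutant, and 1226 genes had a higher log2 fold change. CPM values of the genotypes did not overlap for 60.4% of tested genes; since heph was chosen on this contrast, nothing is read from its place among them. Under upper quartile scaling, which shifted the median over all genes by -0.16 on the log2 scale, the log2 ratio of heph was 0.63. Relative to the median it was 0.86 under either scaling, which follows from rescaling shifting all genes nearly alike.

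**Figure D1:**
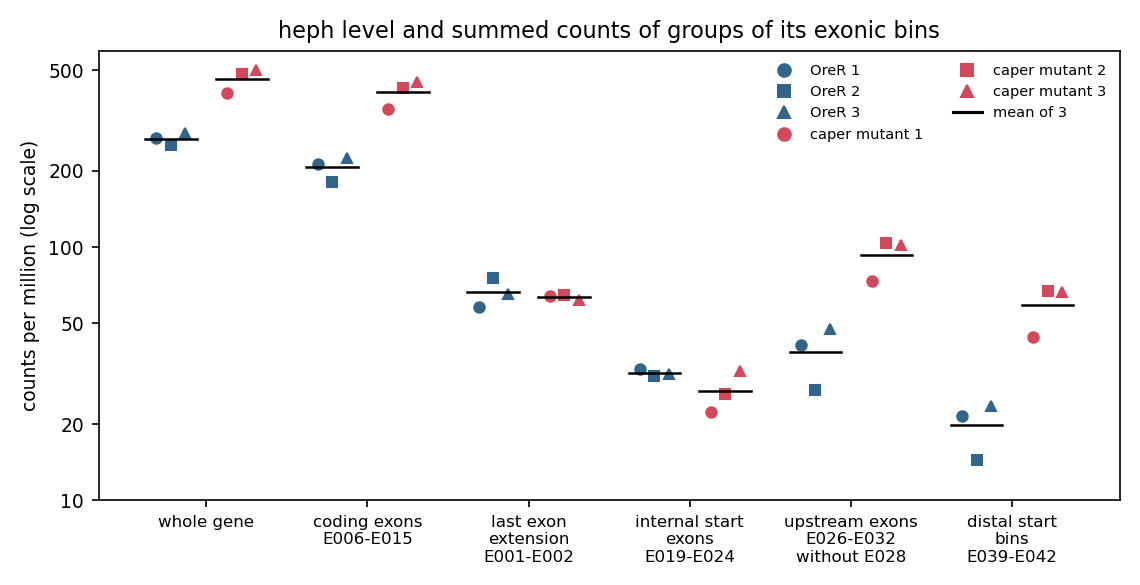
Level of heph and summed counts of groups of its exonic bins, in CPM on a log axis; each point is a library and the bar is the mean of 3. The whole gene, the coding exons, the upstream exons and the distal start bins lie higher in all mutant libraries, while the last exon extension and the internal start exons overlap between the genotypes.

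The difference was not spread evenly over the gene. To say what each bin is, the bins and junctions of heph were rebuilt from 24 of the 25 transcripts of the Ensembl annotation of BDGP6, leaving out 1 transcript (RZ). This gave 43 bins and 49 junctions, against 44 and 49 in the table. All 25 transcripts gave 44 bins and 50 junctions. The number of junctions thus matched only after RZ was left out, and that match is no check of the placing. The rebuild without RZ gave E001 to E039 and the junctions among them a place. The 5 bins E040 to E044 at the upstream end were not placed one by one. The annotation behind the table may differ, and the counts test the placing only in part. At E027, the junctions placed before it held 132, 107 and 142 counts in OreR and 306, 338 and 386 in the mutant, and the junction placed after it held 149, 110 and 158 in OreR and 330, 402 and 431 in the mutant. The rare exons E033 to E037 had totals of 23, 2, 1, 10 and 17 counts, beside 22, 2, 0, 9 and 17 for the single junction that leaves each, while E038 had 25 counts beside 3 for its junction. In that annotation heph lies on the minus strand of chromosome arm 3R, and bin numbers run from its 3′ end to its 5′ end. The grouping of bins by this map, and the splice choices further on, were chosen after the values were seen.

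The coding exons that all the transcripts used share, bins E006 to E015 (E011 and E015 are in 22 and 23 of the 24), encode the common body of the protein. Their summed counts were 213.5, 181.5 and 225.6 CPM in OreR, against 352.3, 425.1 and 450.2 in the mutant. All mutant libraries were higher, and the means of 206.9 ± 22.8 and 409.2 ± 50.8 CPM (SD, n = 3) differed 1.98-fold. The largest of the shared bins by counts were E005, the last coding exon with the start of the 3′ untranslated region (UTR), and E007, a coding exon. As a share of the gene count, E005 held 21.2%, 19.1% and 21.3% in OreR and 24.3%, 24.3% and 24.2% in the mutant. E007 held 12.9% ± 0.773 in OreR and 15.0% ± 0.218 in the mutant. Both shares were higher in every mutant library. The junctions between shared coding exons with the most counts, J045, J046 and J047, had shares 1.21-fold, 1.21-fold and 1.14-fold higher in the mutant without overlap; taken among junctions alone, the log2 ratios of J045 and J046 were 0.04 each in place of 0.27, and that of J047 was -0.04 in place of 0.19.

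The long end of the 3′ UTR did not follow the coding exons. Bins E001 (3262 bases, in transcripts RN and RU) and E002 (733 bases) lie beyond the ends of most annotated transcripts. Together they held 58.1, 75.4 and 65.4 CPM in OreR, against 64.3, 65.0 and 61.7 in the mutant. These ranges overlapped, with a ratio of means of 0.96. The share of E001 in the gene count was 17.7%, 25.1% and 18.8% in OreR and 13.1%, 10.6% and 9.76% in the mutant, so it was lower in every mutant library. E002 held a mean of 4.35% ± 0.500 in OreR and 2.74% ± 0.152 in the mutant. Per base, E001 reached 12.9%, 20.3% and 13.7% of the level of E005 in OreR and 8.34%, 6.75% and 6.24% in the mutant. E002 reached 14.7% ± 2.55 of it in OreR and 7.76% ± 0.408 in the mutant, and no library of either genotype overlapped the other group in these ratios. OreR replicate 2, the library with the highest E001 value, was the one with the lowest heph level. The nearest gene beyond this end, RhoGAP100F, lies on the opposite strand; its level was 61.9, 82.8 and 58.9 CPM in OreR, against 60.6, 57.3 and 59.9 in the mutant, which overlapped. How the counting treated strand is not given in the sources used here, so reads of neighbouring genes in these bins cannot be told apart.

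At the other end, 2 sets of start exons had different ratios between the genotypes. The most distal bins with many counts were E039, placed as a noncoding first exon, and E040 to E042, which were not placed. These 4 bins summed to 21.5, 14.5 and 23.6 CPM in OreR, against 44, 66.9 and 66.6 in the mutant, a 2.98-fold difference of means without overlap. The exons placed downstream of them, E026 to E032 without E028, summed to 40.9, 27.3 and 47.5 CPM in OreR, against 73.6, 103.5 and 101.8 in the mutant, a 2.41-fold difference. Among them, E026 is a 93-base exon that lies in 19 of the 24 transcripts used and holds an annotated start codon. It held 3.51%, 2.59% and 3.87% of the gene count in OreR and 5.30%, 5.81% and 5.92% in the mutant. E027 and E032 also had higher shares without overlap, while the shares of E029, E030 and E031 overlapped between the genotypes. In all of these, OreR replicate 2 was the lowest library.

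The internal start exons, E019 to E024, open the transcripts RC, RQ, RS, RT and RU from within the gene, and E019 carries an annotated start codon. They summed to 33.1, 30.9 and 31.5 CPM in OreR, against 22.4, 26.4 and 32.4 in the mutant. These values overlapped, and the ratio of means was 0.85. With the whole gene higher, their shares were lower in the mutant without overlap in all 6 bins. E019 held 4.36%, 4.58% and 3.94% of the gene count in OreR and 1.93%, 1.82% and 2.21% in the mutant, a 2.16-fold lower share. E020 and E024, both noncoding, had 2.06-fold and 2.26-fold lower shares. E021, a short bin of RC and RQ with 17, 18 and 14 counts in OreR and 3, 9 and 7 in the mutant, had a 4.28-fold lower share. Of the 5 junctions inside this block, J067 (E023 to E020), J068 (E023 to E022) and J069 (E024 to E022) had shares 2.63-fold, 2.03-fold and 1.28-fold lower without overlap. J066 (E022 to E019) had a 1.48-fold higher share that overlapped, from 5 counts in OreR and 12 in the mutant. The junctions placed into E022, J068 and J069, held 231 counts in OreR and 215 in the mutant, far more than J066 out of it. J065 (E021 to E019), the junction of RC and RQ, had no counts in any library. The annotated junctions thus do not bear out all of these transcripts, and which ones the counts of E021 and E022 come from was not tested.

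**Figure D2:**
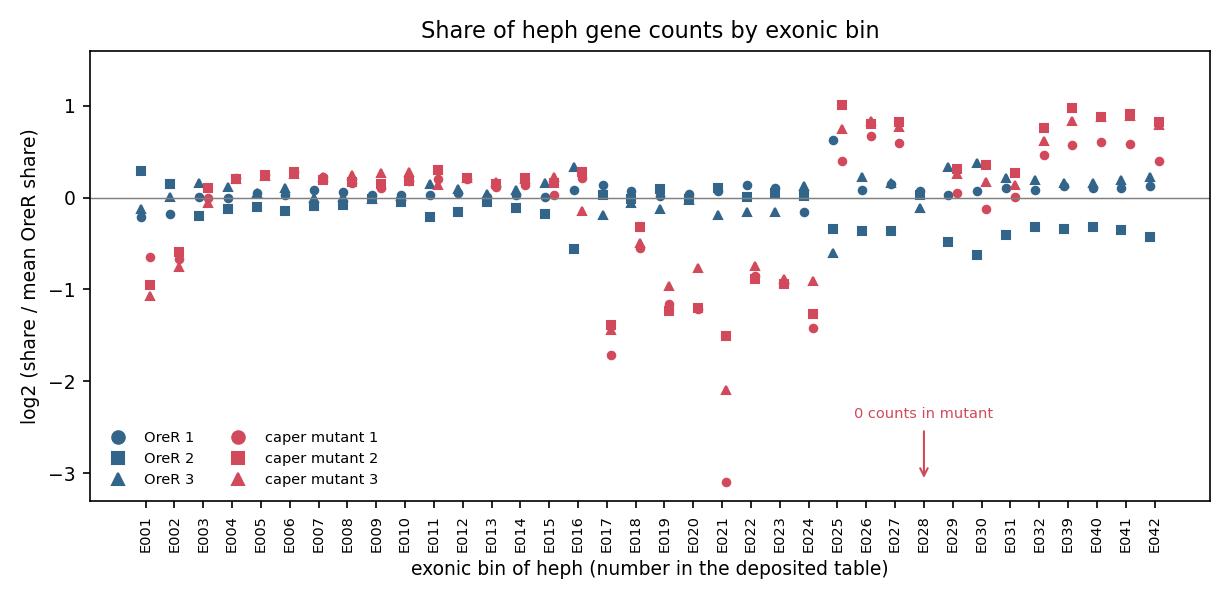
Share of each exonic bin of heph in the gene count of its library, as log2 of its ratio to the mean OreR share, in order of bin number from the 3′ end; bins with few counts (E033 to E038, E043 and E044) are left out, each point is a library, and E028 had 0 counts in the mutant. Shares lie lower in the mutant at E001, E002 and E017 to E024. They lie higher at E026, E027, E032 and E039 to E042, and by less at E004 to E010 and E012 to E014.

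Over the whole gene, 49 of the 69 features with at least 60 counts had shares that did not overlap between the genotypes, 31 with a higher and 18 with a lower share in the mutant. They were 28 of 36 bins, 18 of 29 annotated junctions and 3 of 4 unannotated junctions. Among the features of all genes with at least 60 counts, 21.2% did not overlap, 6.18% higher and 15.0% lower in the mutant. heph was chosen on this contrast, so the counts are printed side by side and nothing is read from them. Shares within a gene also depend on each other: a lower share of 1 long bin raises those of the others.

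The internal start exons and the upstream exons meet at 1 splice acceptor, that of coding bin E015, which 5 annotated junctions join. Of 799 OreR and 1588 mutant counts there, J058 from the internal start exon E019 took 29.7%, 43.2% and 30.3% in OreR and 15.9%, 12.4% and 13.0% in the mutant. J060 from the upstream exon E026 took 59.4%, 48.3% and 58.6% in OreR and 75.5%, 77.4% and 81% in the mutant. Neither choice overlapped between the genotypes. The mean of J058 was 34.4% ± 7.64 against 13.8% ± 1.88 (SD, n = 3), a difference of -20.6 percentage points, and of -23.0 to -16.2 with any 1 library left out. That of J060 was 55.4% ± 6.18 against 77.9% ± 2.79, a difference of 22.5 points, and of 18.9 to 24.5 in the same way. In counts, J058 had 79, 102 and 90 in OreR and 74, 63 and 80 in the mutant, while J060 had 158, 114 and 174 in OreR and 351, 393 and 498 in the mutant. The counts of J058 overlapped and those of J060 did not. Another junction there, J056 from the 42-base cassette exon E016, took 7.0% ± 1.26 in OreR and 5.9% ± 1.64 in the mutant, which overlapped.

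Splicing out of the 5′ UTR exon E032 also differed. Of 692 OreR and 1727 mutant counts leaving E032, J081, which goes to the next UTR exon (E031), took 66.4%, 63.9% and 61.4% in OreR and 41.6%, 44.2% and 40.2% in the mutant. J077, which skips that exon and goes to the 30-base noncoding exon E027, took 27.5%, 29.9% and 34.7% in OreR and 51.5%, 49.7% and 53.8% in the mutant. Each choice lay apart between the genotypes, J081 by -21.9 and J077 by 20.9 percentage points. J074, which skips both and joins E032 directly to the start codon exon E026, had 5, 3 and 2 counts in OreR and 35, 36 and 38 in the mutant, a 6.55-fold higher share of the gene count. Its part of the counts leaving E032 was 1.5% ± 0.62 in OreR and 6.3% ± 0.49 in the mutant. As a share of the gene count, J077 was 2.50-fold higher, with 68, 58 and 87 counts in OreR and 261, 291 and 341 in the mutant. From E029, the other end of the skipped UTR exon, J073 to E026 took 75.5% ± 1.97 of the counts in OreR and 81.5% ± 2.06 in the mutant, and the remainder went to E027.

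E028 was the single bin of heph with counts in every OreR library and none in any mutant library. It is a 52-base exon between E029 and E027, found in transcripts RG, RW and RY, and it holds an annotated start codon. Of the OreR counts leaving it, 93 went to the noncoding exon E027 and 4 to E026. E028 had 40, 40 and 35 counts in OreR and 0 in each mutant library, although the mutant libraries held more heph counts. Against a floor of 3 counts over the mutant group, or 0.0057% of its heph counts, its share was at least 63.9-fold lower. The junction from E028 to E027, J075, had 36, 31 and 26 counts in OreR and 0 in the mutant, a share at least 51.7-fold lower. In OreR it made up 27.3%, 29% and 18.3% of the counts joined to E027; in the mutant it was 0 of 1030, which allows up to 0.291%. The junction into E028 from E032, J078, had 10, 9 and 8 counts in OreR and 0 in the mutant, or 0 of 1727 counts leaving E032, which allows up to 0.174%. These limits cover counting error only.

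Fewer counts entered E028 through its annotated junction than left it. In OreR, 10, 9 and 8 counts entered from E032, and 36, 32 and 29 left to E027 or E026. The unannotated junction N099 had 11, 21 and 18 counts in OreR and 0 in each mutant library, the same pattern as E028, with a share at least 27.7-fold lower. Adding N099 to the incoming counts would give 21, 30 and 26, closer to the outgoing ones, but the table gives unannotated junctions no position here, so whether N099 leads into E028 was not tested.

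**Figure D3:**
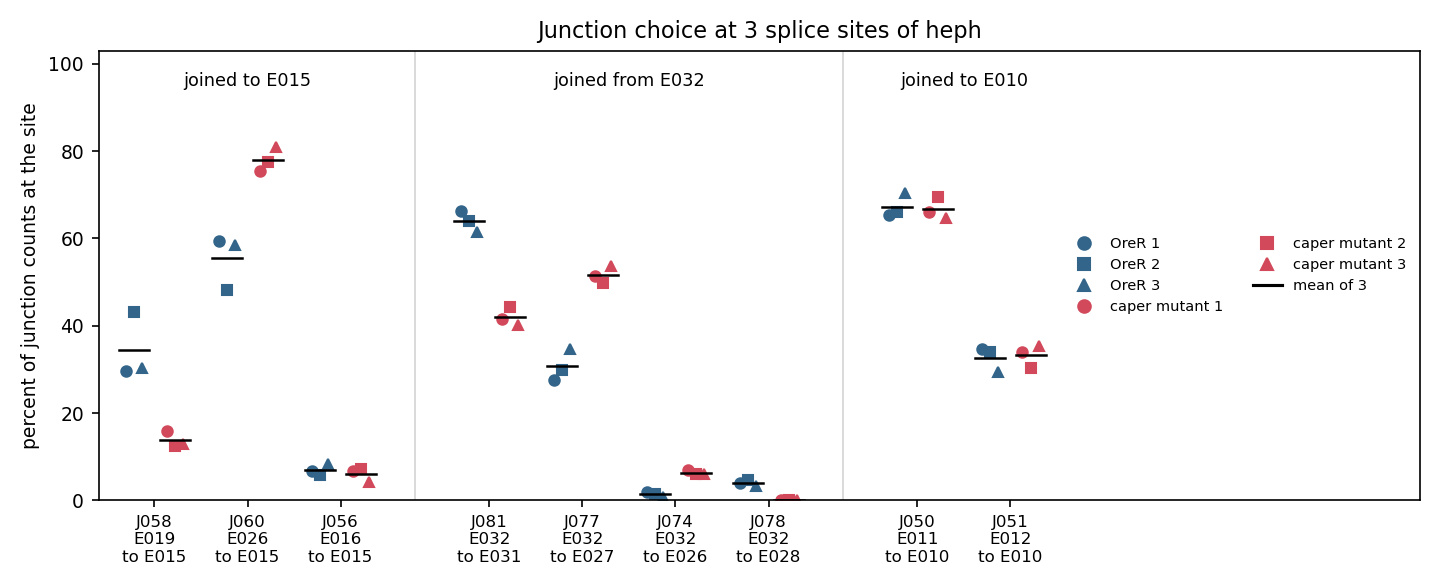
Percent of the junction counts at 3 splice sites of heph that used each junction; each point is a library and the bar is the mean of 3, and 2 junctions to E015 with at most 4.1% are left out. The choices into E015 between E019 and E026, and out of E032 to E031, E027, E026 or E028, lie apart between the genotypes, while both choices into E010 overlap.

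The other unannotated junctions fell on both sides. N095 had 40, 22 and 50 counts in OreR and 147, 136 and 156 in the mutant, a 2.34-fold higher share without overlap. N098 had 31, 36 and 38 in OreR and 8, 8 and 21 in the mutant, a 4.88-fold lower share, and its log2 ratio moves from -2.29 to -2.79 without mutant replicate 3. N097 had 111, 100 and 96 in OreR and 88, 84 and 124 in the mutant; its counts overlapped while its share was 1.74-fold lower without overlap. The shares of N096, with 13, 11 and 7 counts in OreR and 12, 7 and 10 in the mutant, and of N094, with 3, 4 and 6 in OreR and 14, 7 and 17 in the mutant, overlapped.

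Several choices of heph overlapped between the genotypes. At the acceptor of E010, J050 uses a donor that adds 12 bases in frame (E011) and took 67.3% ± 2.79 of 1067 counts in OreR and 66.7% ± 2.60 of 2069 in the mutant. Among junctions into E032, J088 from E039 took 66.2% ± 3.5 and 66.0% ± 0.53, and J090, from one of the unplaced bins, took 25.2% ± 3.69 and 25.9% ± 0.88 of all counts entering E032. Into the start codon exon E026, J071 from E027 took 63.1% ± 2.68 and 61.8% ± 2.70, and J073 from E029 took 34.7% ± 2.9 and 32.4% ± 2.51. At that acceptor J074 from E032 did not overlap, with 1.6% ± 0.72 in OreR and 5.8% ± 0.43 in the mutant. The rare upstream exons E033 to E038 did not overlap either in summed CPM. They held 0.2, 0.1 and 0.2 CPM in OreR and 0.4, 0.5 and 0.6 CPM in the mutant. Of these, E038 made up 2 counts in OreR and 23 in the mutant. The shares of E033 to E037 in the gene count each overlapped between the genotypes.

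The alternative coding exons between E015 and E019 were rare. E017 (297 bases, in RY) and E018 (543 bases, in 5 transcripts) together held 3.7 ± 0.24 CPM in OreR, against 4.2 ± 0.71 in the mutant. E017 alone had 29, 28 and 23 counts in OreR and 13, 16 and 18 in the mutant, a 2.84-fold lower share. Its counts, unlike those of E018 with 123, 120 and 111 in OreR and 129, 148 and 154 in the mutant, were lower in every mutant library. E017 is annotated in a single transcript, RY, which is also among the 3 with E028. However, the RY junction that leaves E017, J061, had 2 counts in OreR and 0 in the mutant. E034, a first exon annotated in RY alone, had 0 counts in OreR and 2 in the mutant. Which transcripts the counts of E017 come from was not tested.

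CG2003, a gene on the opposite strand whose span overlaps that of heph, shares no exon with the rebuilt bins. Its level was 40.3, 57.6 and 45.6 CPM in OreR, against 32.3, 26.8 and 22.7 in the mutant, opposite in direction to heph.

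Genes whose level moved most like heph were sought by the root mean square distance of log2 CPM, each gene centred on its own mean over the 6 libraries, among 2673 genes within 2 log2 units of its abundance. CG9795 was nearest at a distance of 0.016, then Cbs, an enzyme of cysteine synthesis, at 0.019, Pex3, a factor of peroxisome assembly, at 0.022, CG5445 at 0.023 and ifc, a sphingolipid desaturase, at 0.024. The median distance was 0.333. Their log2 fold changes lay between 0.78 and 0.83, beside 0.79 for heph. The points share their libraries and fall into 2 genotypes. Only 2 of the 5 were also among the 5 highest by Pearson correlation.

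The genes that work beside heph were then counted in the test of all genes (edgeR quasi-likelihood, adjusted over 10251 genes), which called 46.9% of them changed, 26.4% higher and 20.6% lower. Of 18 listed members of the PTB and hnRNP family, 14 were matched and tested, and 7 rose and 4 fell, or 78.6% called. Their median log2 fold change was 0.18, against -0.07 for all genes, and under upper quartile scaling the split was 4 up and 5 down. That scaling called 2269 of all 10251 genes higher and 3566 lower, with a median of -0.23, which stands beside the splits of all 4 lists. CG30122, an hnRNP U-like protein, rose from 427.4 ± 23.2 to 666.3 ± 69.4 CPM (log2 0.64 ± 0.10 SE, edgeR adjusted p = 0.0016), and glo, an hnRNP F/H protein that binds osk mRNA, from 320.3 ± 11.0 to 480.2 ± 51.9 CPM (adjusted p = 0.0021). ps, the pasilla gene of a Nova-like splicing regulator, fell from 400.1 ± 45.9 to 260.1 ± 4.12 CPM (adjusted p = 0.0019). Syp, the hnRNP Q/R protein, fell 3.5-fold from 4.2 ± 0.94 to 1.2 ± 0.18 CPM (adjusted p = 9.7e-04). The number called dropped from 11 to 6 without mutant replicate 2 and to 7 without mutant replicate 3.

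The next list joined genes that recognise splice sites or the polypyrimidine tract with other regulators of splicing. Of its 25 genes, 22 were tested, and 12 rose and 3 fell, their median log2 fold change being 0.33. Scaled by upper quartile, the split was 10 and 5. U2af38, the U2AF subunit that reads the AG of the 3′ splice site, rose from 98.9 ± 11.3 to 206.5 ± 16.2 CPM (log2 1.06 ± 0.11 SE, edgeR adjusted p = 6.2e-04). Sf3b1, of the U2 snRNP, rose from 146.3 ± 8.63 to 263.6 ± 25.2 CPM (adjusted p = 7.1e-04). hfp, a PUF60-like splicing factor, rose from 192.3 ± 5.31 to 311.0 ± 16.5 CPM (adjusted p = 6.7e-04), and fl(2)d, of the m6A writer complex, from 193.0 ± 3.64 to 298.1 ± 21.5 CPM (adjusted p = 8.8e-04). Of the tested members 68.2% were called, against the 46.9% of all genes. The lists were chosen with earlier results of these data known, so nothing is read from the percent called in any list.

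Of 23 listed regulators of osk mRNA, 17 were tested, and 10 rose and 3 fell, or 76.5% called, against 46.9% of all genes. Their median log2 fold change was 0.53. Scaled by upper quartile, the split was 8 and 3. smg, also a maternal marker, rose 2.86-fold (log2 1.51 ± 0.21 SE, edgeR adjusted p = 0.0011). stau, which carries osk mRNA, rose from 277.8 ± 14.1 to 447.7 ± 56.3 CPM (adjusted p = 0.0017), and tsu, the Y14 subunit of the exon junction complex, from 76.6 ± 6.44 to 115.4 ± 5.64 CPM (adjusted p = 0.0016). The fourth named member is Syp. osk itself stood at 170.5 ± 63.0 and 142.0 ± 21.9 CPM (adjusted p = 0.44). Of the 69 distinct genes tested over all the lists, 5 are in 2 of them.

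Of 26 listed Notch pathway genes, 21 were tested, and 5 rose and 2 fell, or 33.3% called, against 46.9% of all genes. Their median log2 fold change was 0.01. Scaled by upper quartile, the split was 4 up and 8 down, and the median stood at -0.15, against -0.23 for all genes. That scaling called 2269 of all 10251 genes higher and 3566 lower. Without mutant replicate 2, 4 in all were called. gro, a co-repressor of the pathway's targets, rose from 330.6 ± 26.8 to 640.2 ± 65.5 CPM (log2 0.95 ± 0.10 SE, edgeR adjusted p = 7.1e-04). O-fut1, which adds fucose to the receptor, rose from 51.6 ± 10.1 to 116.3 ± 13.1 CPM (adjusted p = 0.0011). Su(H), the DNA-binding factor of the pathway, rose from 57.2 ± 7.34 to 112.3 ± 16 CPM, and its antagonist H from 176.3 ± 18.1 to 348.5 ± 58.4 CPM (adjusted p = 0.0013 for each). The receptor gene N stood at 367.5 ± 11.3 and 450.9 ± 86.0 CPM (adjusted p = 0.1). The differences in maternal, neuron, muscle and late epidermis markers given above stand beside all 4 lists, and their part in these counts was not tested.

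**Figure D4:**
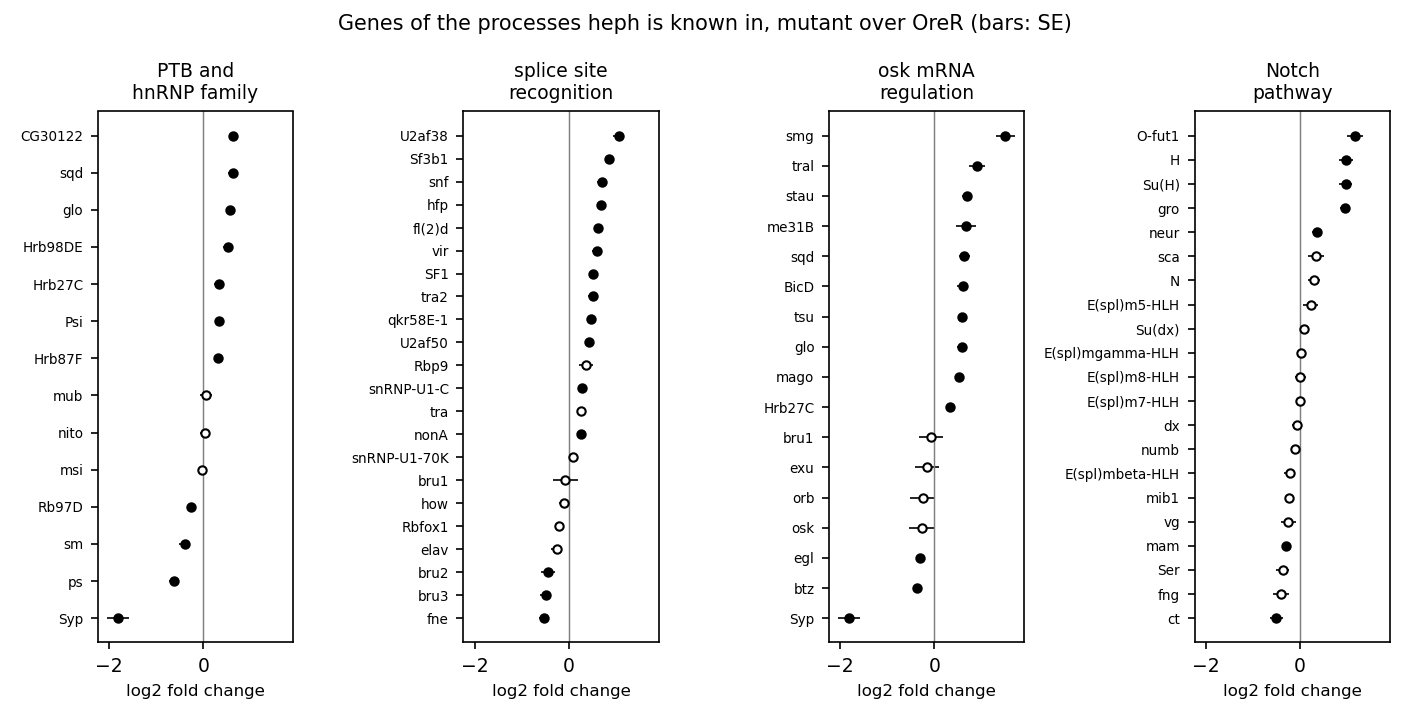
Log2 fold change, mutant over OreR, of the tested members of 4 lists of genes that work beside heph; bars are standard errors and filled points were called changed by edgeR. Filled points lie on both sides of 0 in every list, with Syp the lowest at -1.81 and smg the highest at 1.51.

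Use of bins and junctions was tested for the same lists, in a fit that called 6.07% of 8533 genes and 1.81% of 89049 features. The members called were 3 of 14 in the PTB and hnRNP list (Hrb98DE, sqd and CG30122), 3 of 21 in the splice site list (SF1, tra2 and fl(2)d), 2 of 17 in the osk list (sqd and BicD) and 1 of 16 in the Notch list (ct), named after their values were seen. ct, a target of Notch at the wing margin, had its bin E006 fall from 1.69% ± 0.18 to 0.079% ± 0.00503 of its gene count (edgeR diffSpliceDGE adjusted p = 1.6e-12). sqd, an hnRNP of osk and grk mRNA, had its bin E012 fall from 0.407% ± 0.048 to 0.199% ± 0.0104 (adjusted p = 3.7e-05). These calls held on leaving out each library, whereas each of the other 6 was lost without at least 1 library.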

How the data were processed

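RNA from whole embryos of 2 genotypes, 3 libraries each, was analysed; titles gave genotype and replicate. Per the file headers, the authors' deposited table was written for JunctionSeq. It holds raw counts of each bin or junction, and in separate columns the counts of the rest of its gene. The deposited table also holds each count divided by a library size factor, a normalised signal, which was not used further. GSNAP, SAMtools, BDGP5 and mm10 are listed in the submitters' processing notes; for their roles, the annotation, the counter and its strand setting nothing is stated in the labels.

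A gene count was the smallest sum of a feature and its rest; for heph all sums were equal. A share is a feature count as a percent of it. A read pair can enter several features. The test over genes was that of edgeR 4.0.16 under R 4.3.3 (TMM, filterByExpr, glmQLFit, glmQLFTest, genotype as the only term, Benjamini-Hochberg at 0.05), and usage with diffSpliceDGE; limma 3.58.1 and DESeq2 1.42.0 served as alternatives. SE is the log2 fold change over the root of F. The tests were tried on simulated data. P-values set the difference between the genotypes against the spread between these libraries, estimated with information shared over genes or features. A fold against 0 counts uses a floor of 3 counts over the group. No replicate pair agreed within sampling noise. BDGP6 served for names and for the map of heph; no coordinates are printed, since the builds differ.

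heph and the lists were chosen with earlier results of these data known. The rule for named features took, among those with at least 60 counts and no overlap, the 6 bins and 6 junctions with the largest share ratio, the 3 of each with the most counts, and every unannotated junction. For each list it took the 4 changed members of smallest p, and for each marker list the 2 most abundant. Other list members that the text names, J060, J050 and further junctions at the same splice sites, and E026, E002 and E018 were added after values were seen. Listed genes that could not be matched were not analysed here.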

Additional observations from a re-analysis of the deposited data

How the results depend on the processing

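The log2 ratio of heph was 1.02 from summed junctions, 0.63 with upper quartile scaling, and 0.73 to 0.87 on leaving out each library. Of 120 log2 ratios of 20 named features with a library left out, 119 stayed within 1 SD, and that of N098 without mutant replicate 3 did not. All 120 kept their direction, but apart from N096 the shares of these features did not overlap. For features without overlap, leaving out 1 library cannot reverse the direction. As a share of features of the same kind, 19 of 20 kept their direction and 12 stayed within 1 SD; 7 moved further (E005, E007, J045, J046, J058, J068 and N097) and J047 turned to -0.04. Non-overlapping heph features were 44 of 69 with that share. Over all genes, leaving out a library gave 3169 to 4376 changed genes (3169 without mutant replicate 2) against 4811, 940 to 1535 features with changed usage against 1609, and 324 to 481 genes with changed usage against 518. Bins alone gave 867 features and junctions alone 649, and junctions alone gave 316 genes. Called members on leaving out a library were 6 to 9 in the PTB and hnRNP list, 12 to 15 in the splice site list, 10 to 15 in the osk list and 4 to 7 in the Notch list, where upper quartile scaling gave 12. All 15 named list genes kept their call under every alternative tried, and 1 of 8 usage calls (sqd) did. DESeq2 called 5085 genes and upper quartile scaling 5835, and limma called 716 genes for usage. Deviations of same-numbered libraries correlated at 0.09, -0.012 and 0.597, and those of differently numbered ones at -0.561 to 0.437. With 3 libraries per genotype, these values cannot tell whether the numbers pair the libraries. With replicate number as a block, 4993 genes, 1749 features and 531 genes for usage were called. The lists then had 10, 15, 13 and 8 called members in the order above. Depth limits the rare junctions: J074 had 10 counts in OreR.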
